A study of Mus musculus with 8 samples.

Results

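The cell cycle and DNA replication genes are 41 genes, taken as a list of named genes with no threshold on a measured value, out of 20145 genes that had a probe on the array. They were followed in the cardiac ventricles 24 hours after surgery, and each gene was represented by its brightest probe directed against one of its RefSeq transcripts. The list holds 12 replication and nucleotide synthesis genes, 7 genes for D and E cyclins and E2F factors, and 22 genes of mitosis. Myocardial infarction (MI) was induced in 4 mice by permanent ligation of a coronary artery, and 4 mice were sham-operated. Both groups were adult male mice of the C57BL\6 background for which the labels give no genetic modification, and each mouse gave 1 array of total RNA. Because the ventricles were homogenized whole, fewer cells of a type and less RNA per cell cannot be told apart. Infarcted and non-infarcted muscle were read together as well.

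Cells enter the cycle when D and E cyclins activate cyclin-dependent kinases, which inactivate Rb proteins and free E2F factors to transcribe the genes of DNA synthesis. The MCM helicase then opens the DNA, PCNA holds the polymerases on it, and ribonucleotide reductase, thymidylate synthase and thymidine kinase supply the precursors. Genes of mitosis are transcribed later, from promoters that often carry CCAAT boxes and an element called CHR. Adult cardiomyocytes rarely divide, whereas endothelial cells, fibroblasts and blood-derived cells of the heart can. The comparison therefore asked whether the ventricle carried more or less RNA of the dividing state 24 hours after infarction.

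Thymidine kinase 1 (Tk1), which phosphorylates thymidine for DNA synthesis and is best known from dividing cells, was the member with the largest difference, so the sequence in front of its start is shown. The 250 bases before the RefSeq start of Tk1 lie on the minus strand of build GRCm38.p6 at chr11:117826015-117826264, and capitals would mark any of the motifs named next.

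Tk1 upstream: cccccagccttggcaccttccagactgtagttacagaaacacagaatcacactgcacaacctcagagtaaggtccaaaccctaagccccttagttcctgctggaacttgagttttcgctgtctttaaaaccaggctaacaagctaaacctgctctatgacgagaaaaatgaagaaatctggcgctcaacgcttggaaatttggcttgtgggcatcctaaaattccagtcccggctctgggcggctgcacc

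Both strands were searched for TTTGAA (the CHR element), CCAAT, and the E2F-type letters TTCGCGC, TTTGGCGC, TTTCCCGC and TTTGGCGG, and matches of different motifs may overlap. No such letters were found in the Tk1 window, which says only that these letters are not in it. RefSeq promoters were given for 33 of the 41 members, Ccnd1 not among them. CCAAT was present before the start of 27 of those 33 genes (81.8%), against 37.5% of 27025 genes with a promoter. CHR letters were present in 9 of 33 (27.3% against 18.3%), namely in Mcm2, E2f2, Mki67, Top2a, Ccnb2, Cdk1, Cdc20, Kif11 and Ube2c. An E2F-type motif was present in 5 of 33 (15.2% against 3.39%), namely in Mcm5, Mcm6, Mcm7, Uhrf1 and Cdk1. By list, CCAAT was found in 9 of 11 replication genes and in 16 of 18 genes of mitosis, whereas the E2F-type letters were found in 4 of 11 and in 1 of 18. These matches describe the letters only.

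All 8 arrays shared 1 slide and 1 scan, and well above background were from 58.6% to 66.4% of their spots. Differences are given as MI minus sham on the log2 scale, on which 1 unit is a 2-fold change, with signals placed on the spike-in scale of the authors. A probe was tested when it was well above background on at least 4 of 8 arrays, and it was called when the Benjamini-Hochberg adjusted P value of limma was under 0.05. Of 34038 probes tested, 2590 (7.61%) were called, 2144 of them higher and 446 lower in MI. When each array was instead scaled to its 75th percentile, 17.5% were called, 2963 higher and 3010 lower. The median difference over all tested probes was 0.12 on the spike-in scale and -0.02 on the percentile scale. Counting the brightest probe of each gene, as for the lists, 9.51% of 15156 genes tested were called, 7.74% higher and 1.77% lower, and on the percentile scale 22.6%, 10.1% and 12.5%. The median over these genes, against which list medians are to be read, was 0.07 on the spike-in scale and -0.06 on the percentile scale.

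All 41 members had a probe. Of these, 32 were well above background on all 8 arrays, and 36 passed the filter and were tested. Of the 36 tested members, 2 were called (5.56%, against 9.51% of all genes tested): Tk1 was lower and cyclin D1 (Ccnd1) was higher in MI. The remaining 34 were not called, and 3 members in all had an unadjusted P under 0.05. The median difference of the 36 members was 0.12 on the spike-in scale and -0.01 on the percentile scale. The groups did not overlap for 3 members, Ccnd1, E2f2 and Birc5, while 13.0% of all genes tested had groups that did not overlap. Signals of different probes do not rank the genes by transcript abundance, since each probe binds with its own strength.

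**Figure D1:**
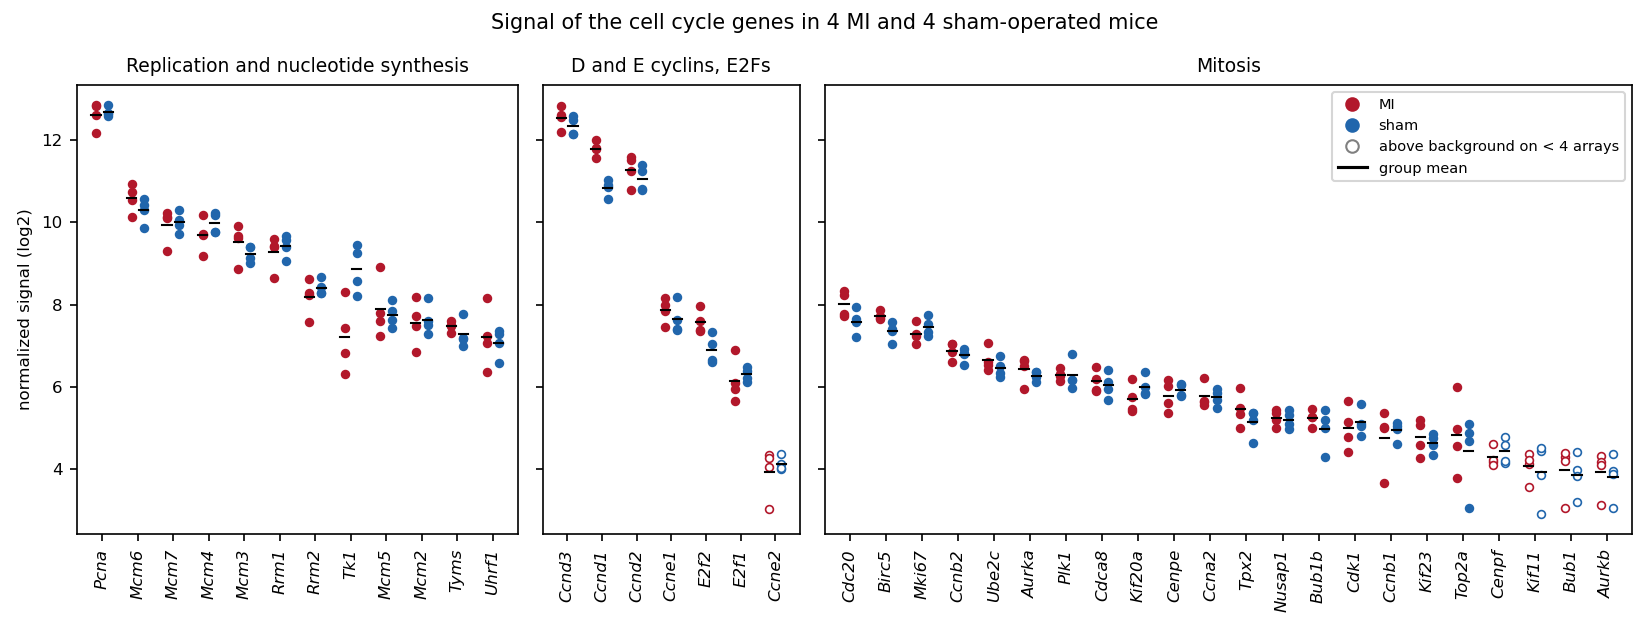
Normalized signal (log2, vertical axis) of each of the 41 members in each mouse, in 3 panels by list, with MI mice in red, sham-operated mice in blue and the group mean as a black bar. Open circles are probes that failed the detection filter. The Tk1 points of MI mice lie mostly below those of sham-operated mice and the Ccnd1 points of MI mice all lie above, while for most other members both groups cover the same range.

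All 12 replication genes were well above background on all 8 arrays, and 1 of them was called. Tk1 signal was 7.43, 6.32, 6.82 and 8.31 in MI replicates 1 to 4, and 8.21, 9.26, 9.44 and 8.56 in sham replicates 1 to 4. MI replicates 1 to 3 lay below every sham-operated mouse, and MI replicate 4 lay just above sham replicate 1, so the groups overlapped. Tk1 averaged 7.22 ± 0.86 (SD, n = 4) after MI, against 8.87 ± 0.58 (SD, n = 4) after sham operation. It was thus 3.14-fold lower after MI, a difference of -1.65 with a standard error of 0.32 and a 95% confidence interval from -2.30 to -0.998, at a limma adjusted P of 0.000917. Of all genes tested 1.77% were called lower on this scale and 12.5% on the percentile scale. Counting both directions, 4.6% passed a limma adjusted P under 0.05 and a 2-fold change, as Tk1 did. The exact permutation test, two-sided and on Tk1 alone, gave P = 0.0571, where 0.0286 is the smallest P it allows with 4 against 4 mice. The difference was -1.86 among the 4 arrays in the first row of the slide and -1.44 among the 4 in the second row. The call was lost with a new vsn fit, which adds larger constants to the signal (-0.91, limma adjusted P = 0.0867), and without a detection filter (-1.65, limma adjusted P = 0.0572). Tk1 was measured by 1 probe, so no other probe bears on the value.

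The other enzymes of nucleotide supply were not called. Ribonucleotide reductase makes deoxynucleotides, and its large subunit Rrm1 differed by -0.16 while its small subunit Rrm2 differed by -0.23. Rrm2 signal was 8.29, 7.57, 8.23 and 8.62 in MI mice against 8.42, 8.27, 8.66 and 8.28 in sham-operated mice, so 1 MI mouse was lower than all others and the remaining values were interleaved. Thymidylate synthase (Tyms), which makes thymidylate by the route that does not need thymidine kinase, differed by 0.19 with an interval from -0.24 to 0.63. The interval of Tk1 thus lay wholly below those of Rrm1 (-0.63 to 0.31), Rrm2 (-0.70 to 0.23) and Tyms, although differences between genes were not tested.

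The helicase subunits moved in both directions by small amounts. Mcm3 (0.27), Mcm5 (0.14) and Mcm6 (0.29) had positive differences, and Mcm2 (-0.07), Mcm4 (-0.29) and Mcm7 (-0.06) negative ones, with adjusted P from 0.518 (Mcm6) to 0.917 (Mcm7) by limma. Mcm5 shows the spread within the MI group. Its signal was 7.61, 7.24, 7.79 and 8.93 in MI mice and 8.10, 7.83, 7.62 and 7.44 in sham-operated mice, so that MI replicate 4 alone was above every other mouse. Pcna, the sliding clamp of the polymerases, was 12.61 ± 0.31 (SD, n = 4) after MI, against 12.68 ± 0.11 (SD, n = 4) after sham operation. Its difference of -0.06 had an interval from -0.50 to 0.37. Uhrf1, which helps to copy DNA methylation at the replication fork, differed by 0.14 on the spike-in scale and -0.01 on the percentile scale. For 11 of the 12 replication genes, all but Tk1, the 95% interval lay within a 2-fold change in either direction. The list median was -0.06, with 5 positive and 7 negative differences, and -0.19 on the percentile scale.

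**Figure D2:**
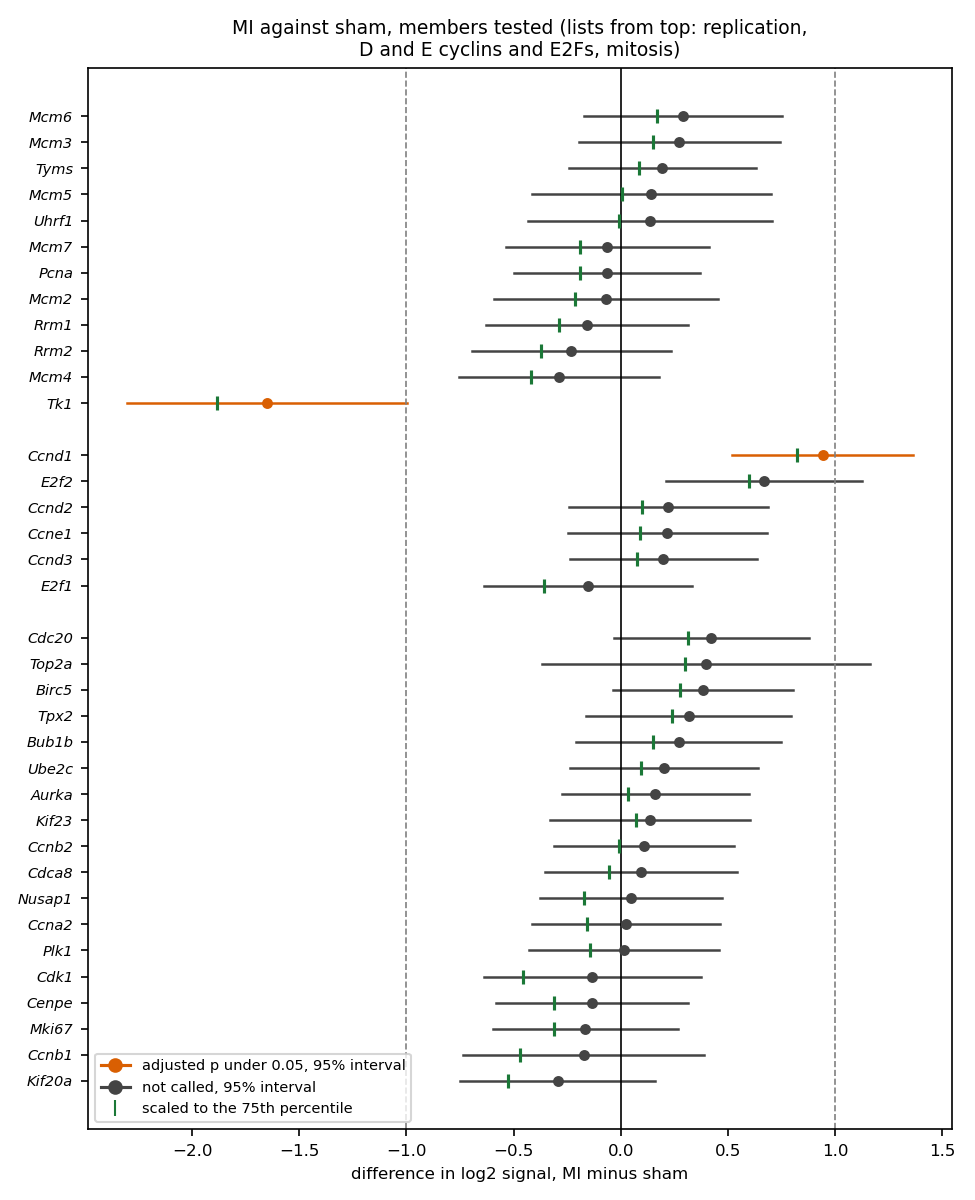
Difference in log2 signal (MI minus sham, horizontal axis) of the 36 tested members with its 95% confidence interval, in 3 blocks for replication, D and E cyclins with E2Fs, and mitosis. Orange marks the members called, green ticks the same difference after scaling to the 75th percentile, and dashed lines a 2-fold change. Tk1 lies at -1.65 and Ccnd1 at 0.94, and 32 of the 36 intervals lie between the dashed lines.

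Among the 7 cyclin and E2F genes of G1, 6 were tested and Ccnd1 was called, beside 9.51% of all genes tested. Cyclin D1 is induced by growth signals and starts the inactivation of Rb. Its signal was 11.81, 11.56, 12.00 and 11.78 in MI mice and 11.03, 10.57, 10.92 and 10.85 in sham-operated mice. All MI mice were above all sham-operated mice, and the lowest MI mouse exceeded the highest sham-operated mouse by more than the SD within either group (0.18 and 0.20, n = 4). Ccnd1 was 1.92-fold higher after MI, a difference of 0.94 with a standard error of 0.20 and an interval from 0.52 to 1.36 (limma adjusted P = 0.00329; exact permutation P = 0.0286, two-sided). It was called under every alternative run, with differences between 0.82 and 1.02. The gain was 0.88 in the first row of the slide and 1.01 in the second. The other D-type cyclins, which act on the same kinases, were not called: Ccnd2 differed by 0.22 (interval -0.24 to 0.69) and Ccnd3 by 0.20 (interval -0.24 to 0.64). A second Ccnd3 probe gave 0.40 and was not called either.

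E2f2, an activator of replication genes, was 7.36, 7.38, 7.60 and 7.96 in MI mice and 6.64, 7.04, 7.33 and 6.61 in sham-operated mice. The groups did not overlap, but MI replicate 1 was barely above sham replicate 3. The difference of 0.67 (standard error 0.22) had a limma adjusted P of 0.0656 and was not called. Without sham replicate 3 it was 0.81 with a limma adjusted P of 0.0292, and it was not called when any other mouse was left out. E2f1, its close relative, had a difference of -0.15, and MI replicate 4 at 6.90 was the highest of the 8 mice. Cyclin E1 (Ccne1), which drives entry into S phase, differed by 0.22 with overlapping groups. Cyclin E2 (Ccne2) was not well above background on any array, so no difference is given. The median of the 6 genes tested was 0.22 on the spike-in scale and 0.09 on the percentile scale.

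None of the 18 tested genes of mitosis was called by limma, beside 9.51% of all genes tested. None had an unadjusted limma P under 0.05, and none was called by the permutation-based method of the study. Their differences ran from -0.29 (Kif20a) to 0.42 (Cdc20), with 13 positive and 5 negative. The median was 0.10 on the spike-in scale and -0.03 on the percentile scale, beside 0.07 and -0.06 for all genes tested. For 17 of 18 the interval lay within a 2-fold change, the exception being Top2a. For these 17 a change above 2-fold on this scale lay outside the interval, while smaller changes stayed within it. The scale includes a constant of 3.16 to 19.6 signal units per array, which shrinks differences of dim probes. Ccnb1, for example, had a mean signal of 18.6 units in MI and 18.3 in sham-operated mice. For such dim members the interval therefore does not bound the change in RNA.

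Of the general marks of cycling cells, only Mki67 was well above background on all 8 arrays. Mki67, which coats the chromosomes of dividing cells, was 7.29, 7.23, 7.03 and 7.61 in MI mice and 7.74, 7.23, 7.33 and 7.52 in sham-operated mice. The values were interleaved, with a difference of -0.17 (interval -0.60 to 0.27), and a second probe gave -0.37. Topoisomerase II alpha (Top2a), which untangles the replicated DNA, was well above background on 1 MI array and 3 sham arrays. It read 4.97, 4.57, 3.79 and 6.00 in MI mice and 4.68, 5.11, 3.07 and 4.89 in sham-operated mice, close to background, with an interval from -0.37 to 1.16. The label of the list thus rested on Mki67 on all 8 arrays and on Top2a on 4.

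The cyclins and the kinase of mitotic entry differed little. Cyclin A2 (Ccna2) differed by 0.02, cyclin B1 (Ccnb1) by -0.17, cyclin B2 (Ccnb2) by 0.11 and their kinase Cdk1 by -0.13. On the percentile scale the signs of Ccna2 and Ccnb2 were negative, as were those of Plk1, Cdca8 and Nusap1 given next. A second Cdk1 probe gave 0.04, so the probes of this gene differed in sign, and neither was called. Among the other mitotic kinases, Aurora A (Aurka) differed by 0.16, Plk1 by 0.01 and the checkpoint kinase Bub1b by 0.27. Aurora B (Aurkb) and Bub1 were not well above background on any array.

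The remaining members serve the spindle, the centromere and the exit from mitosis. Cdc20 activates the ubiquitin ligase that ends mitosis. It was 8.32, 7.77, 8.24 and 7.71 in MI mice and 7.93, 7.21, 7.57 and 7.64 in sham-operated mice, higher on average but overlapping (difference 0.42, limma adjusted P = 0.295). Ube2c, the ubiquitin-conjugating partner of that ligase, differed by 0.20. Survivin (Birc5) sits with Cdca8 in the chromosomal passenger complex. Birc5 was 7.73, 7.67, 7.66 and 7.87 in MI mice and 7.40, 7.59, 7.35 and 7.04 in sham-operated mice, so the groups did not overlap, yet the difference of 0.38 had a limma adjusted P of 0.303. Another Birc5 probe gave 0.26, and the remaining one failed the filter. Cdca8 differed by 0.09. The spindle motors and spindle proteins Kif23 (0.14), Tpx2 (0.32) and Nusap1 (0.05) and the centromere motor Cenpe (-0.13) were not called, nor was the motor Kif20a (-0.29). Of these, Kif23 was well above background on only 2 MI and 2 sham arrays. The motor Kif11 was not well above background on any array, and the centromere protein Cenpf was so on a single sham array.

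Within the MI group, 1 mouse carried more of these transcripts than the others. MI replicate 4 had the highest MI signal for 30 of the 36 tested members, namely for 9 of 12 replication genes, 4 of 6 cyclin and E2F genes and 17 of 18 genes of mitosis. It was the highest MI array for 18.3% of all tested probes. On the percentile scale the count was 26 of 36, against 20.0% of all tested probes. Relative to the median of its own array, this mouse stood 0.35 above the 8-mouse mean for replication genes, 0.37 for cyclins and E2Fs, and 0.33 for mitosis genes. The other MI mice stood below the mean for replication genes, from -0.36 to -0.22. Among the mitosis genes the lowest were MI replicate 3 (-0.52) and sham replicate 3 (-0.33), the arrays with the smallest constant added by the normalization of the authors, which sets how low a dim probe can read. Sham replicate 2 stood 0.32 above for replication and 0.35 for mitosis genes. This pattern was noticed in the data and was not tested. Infarct size by mouse was not analysed here.

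**Figure D3:**
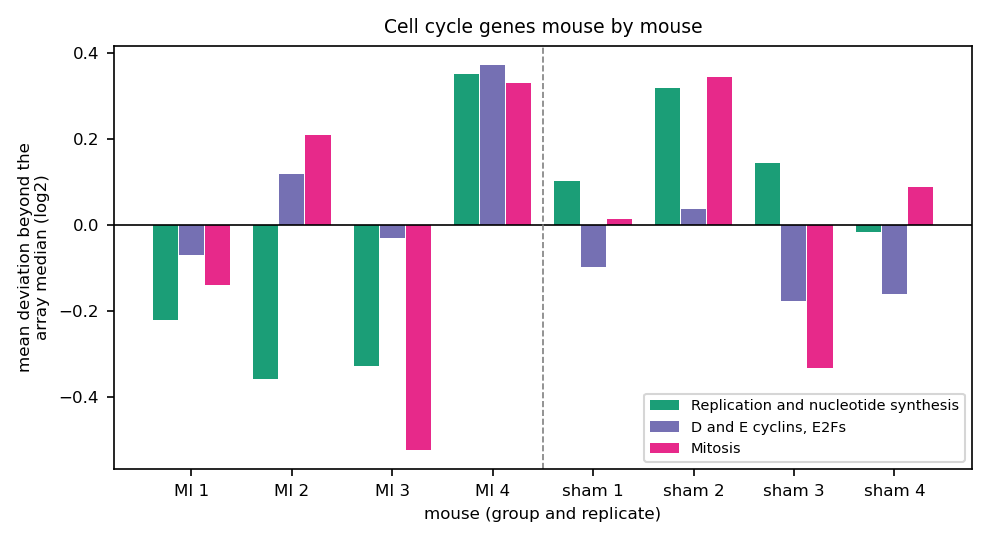
Mean deviation of the tested members of each list from their own mean over 8 mice, after subtracting the deviation of the array median (log2, vertical axis), for each mouse (horizontal axis, MI on the left and sham on the right). Bars start at 0 and carry no error bar. MI replicate 4 is above 0 in all 3 lists (0.35, 0.37 and 0.33), and the lowest bar is that of the mitosis genes in MI replicate 3 (-0.52).

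Other genes of the pathway were read as further lists of textbook genes. Of 46 other replication genes 43 were tested, and 1 was higher and 2 were lower in MI. On the percentile scale 4 were higher and 11 lower. Of all genes tested, 7.74% were higher and 1.77% lower on the spike-in scale, and 10.1% and 12.5% on the percentile scale. Pola2, a subunit of the polymerase that lays down primers, differed by 0.86 (limma adjusted P = 0.0101). Rpa3, the smallest subunit of the protein that coats single-stranded DNA, differed by -0.81 (limma adjusted P = 0.0272), and both had groups that did not overlap. Geminin (Gmnn), the inhibitor of helicase loading, differed by -0.76 with overlapping groups and is named after its value was seen. The permutation-based method of the study called 1 of the 43 higher and 0 lower. With the new vsn fit or without a detection filter, 0 were called lower. The same held without MI replicate 2, MI replicate 3 or sham replicate 3. The list median was -0.04, against 0.07 for all genes tested.

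Of 58 other genes of mitosis 40 were tested, and 14 were not well above background on any array. Here 1 gene was higher and 1 was lower, and on the percentile scale 1 was higher and 4 were lower, against the same shares of all genes tested (7.74% and 1.77%, then 10.1% and 12.5%). Shugoshin 2 (Sgol2, now Sgo2a), which guards the cohesion of centromeres, differed by -1.09 (limma adjusted P = 0.00851). Its signal was 6.54, 5.57, 5.62 and 6.84 in MI mice and 6.99, 6.85, 7.53 and 7.57 in sham-operated mice, with all MI mice below all sham-operated mice. However, MI replicate 4 was barely below sham replicate 2. The spindle protein Ckap2 differed by 1.37 but was well above background on only 2 sham arrays, and it too is named after its value was seen. The permutation-based method of the study called 0 of the 40, as did the new vsn fit and the fit without a detection filter. Without MI replicate 2, 0 were called lower. The list median was 0.15.

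Of 30 genes for cyclin-dependent kinases, their inhibitors, Rb proteins, other E2Fs and further regulators, 29 were tested, and 5 were higher and none lower in MI, whereas 5 were higher and 5 lower on the percentile scale. Of all genes tested, 7.74% were higher and 1.77% lower, and 10.1% and 12.5% on the percentile scale. Myc, a growth factor-induced activator of cell cycle entry, differed by 1.23 (limma adjusted P = 0.00217). E2f4, an E2F that mainly represses, differed by 1.18 (limma adjusted P = 0.000865). The antiproliferative factor Btg1 differed by 0.89 and Mycn by 0.89. The inhibitor Cdkn1a (p21), induced by p53 and stress, differed by 0.84 (limma adjusted P = 0.0342) and is named with Mycn after the values were seen. All 5 had groups that did not overlap. The list thus held both activators and inhibitors of the cycle among its higher genes.

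**Figure D4:**
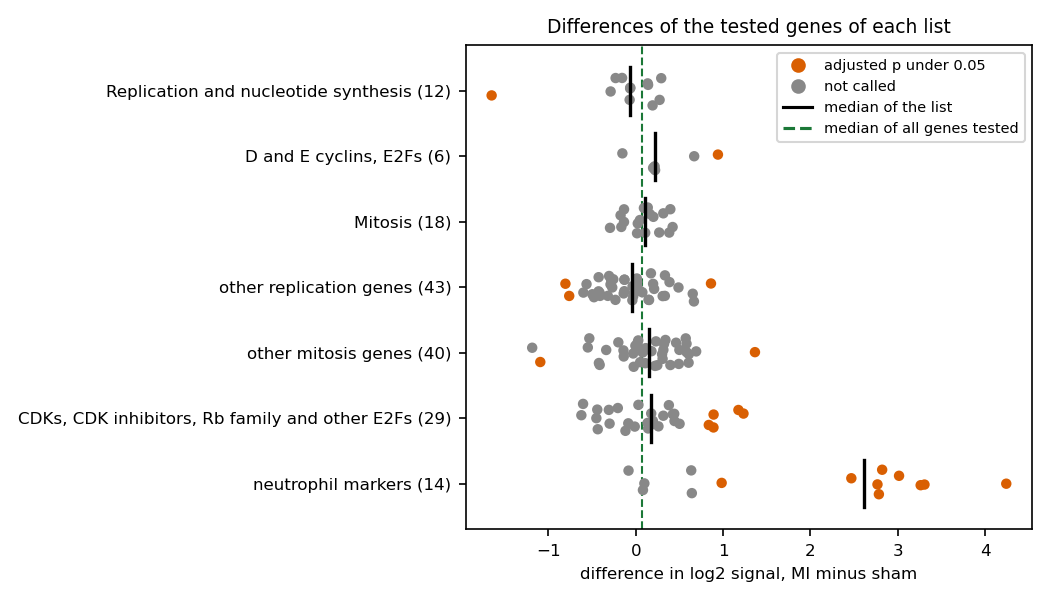
Difference in log2 signal (MI minus sham, horizontal axis) of each tested gene of 7 lists, with the number tested in brackets. Orange points were called, black bars are list medians, and the dashed line is the median of all genes tested (0.07). The members and the other replication and mitosis genes gather around the dashed line, while the neutrophil markers have a median of 2.62; vertical jitter carries no value.

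Among the markers of white blood cells, the neutrophil list had the largest median difference. The shares of all genes tested were 7.74% higher and 1.77% lower. Of 14 neutrophil markers tested 9 were higher in MI and none lower, with a median difference of 2.62. Their summed linear level lay between 257535 and 376543 in MI mice, above the range of 78082 to 126462 in the sham group. S100a9, an abundant neutrophil protein, differed by 2.79, and the receptor Csf3r by 0.08. None of the 14 was below background on every array. MI replicate 4, the MI mouse with the highest MI signal for most members, had the lowest neutrophil sum of the MI mice. This is 1 array, and a relation between the 2 was not tested. Of 10 monocyte and macrophage markers 2 were higher, namely Cd14 by 2.25 and Ccr2 by 1.15, both named after their values were seen. The brightest, Itgam and Csf1r, differed by 0.14 and -0.16, and the list median was 0.14. Of 8 lymphocyte markers 2 were higher, Cd3d by 0.90 and Cd79b by 0.73, also named after their values were seen. On the percentile scale, and by the permutation-based method of the study, 1 lymphocyte marker was higher. With the new vsn fit or without a detection filter 0 were, and without sham replicate 2 there were 4. The brightest, Cd4 and Cd3e, differed by 0.18 and -0.12, and the list median was 0.44. The summed levels of the monocyte and macrophage list and of the lymphocyte list overlapped between the groups. The part of these cells in the values of Tk1, Ccnd1 or any other member was not tested.

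Markers of the cells that reside in the heart gave these values. The shares of all genes tested were again 7.74% higher and 1.77% lower, and 10.1% and 12.5% on the percentile scale. By limma none of 8 endothelial markers was called (2 at an unadjusted P under 0.05, 0 by the permutation-based method), with 5 positive and 3 negative differences and a list median of 0.20. The brightest of them, Egfl7 and Kdr, lay at -0.14 and -0.16, and those with the unadjusted P, Pecam1 and Emcn, at 0.65 and 0.43. On the percentile scale 1 endothelial marker was called higher. None of 8 fibroblast markers was called (3 and 0 by the same measures), with Dcn at -0.38, Col1a2 at -0.44 and a list median of -0.41. The fibroblast sum lay between 46966 and 116105 in MI mice, overlapping the range of 89203 to 143562 in the sham group. None of 9 cardiomyocyte markers was called (1 and 0; 1 was called lower on the percentile scale), with Actc1 at 0.29, Myl2 at -0.08 and a list median of -0.07, and all 9 were well above background on every array. Of 7 smooth muscle and pericyte markers 2 were higher, Acta2 by 1.46 and Cspg4 by 0.89, while Tagln differed by -0.07. On the percentile scale 2 of the 7 were higher and 1 was lower. Their summed level lay between 32574 and 54135 in MI mice, above the range of 22670 to 31129 in the sham group. Of 6 erythroid markers 1 was higher, Tfrc by 1.78, while the brightest, Hba-a1 and Hbb-bt, differed by 0.13 and 0.05. Cspg4, Tfrc, Pecam1 and Emcn are named after their values were seen. The part of these cells in the members' values was not tested either.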

How the data were processed

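Total RNA of 8 mouse ventricles (4 MI, 4 sham, replicates numbered by the titles) was labelled with Cy3 and hybridized to 1-colour Agilent SurePrint G3 arrays. The deposited scanner files of the authors (Feature Extraction 11.0.1.1) hold background-corrected spot intensity, and the deposited matrix of the authors holds log2 values after spike-in vsn normalization, with spots near background removed. The scale and the constant added to the signal of each array (3.16 to 19.6 signal units) were recovered by setting the matrix against the scanner intensity, and all spots were put on that log2 scale. Outlier spots were dropped, spots of 1 probe averaged, and probes well above background on at least 4 of 8 arrays kept, since values below that are mostly the constant. SystematicName accessions were matched to RefSeq symbols (26582 of 55681 probes matched), with GRCm38.p6 used for names and for promoters only. The genome build of the probes was not used.

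MI was compared with sham using limma 3.58.1 in R 4.3.3 (lmFit, eBayes, no covariate) and Benjamini-Hochberg adjustment over all 34038 probes. Exact permutation tests enumerated all labellings with numpy 2.4.6, and the new vsn fit used scipy 1.17.1. The permutation-based method of the study, significance analysis of microarrays, was run over all 70 labellings. Scripts were tested on simulated data. The members and all lists were chosen with earlier results of these data known, so no list is independent evidence. All members were named. From each other cell cycle list, at most 3 genes per direction were named, those of largest difference that were called, above background on all 8 arrays and not overlapping. From each marker list the 2 brightest genes were named, and promoters were shown for called members. Alternatives covered scaling, background correction, the detection filter, probe averaging, blocks and leaving out each mouse. The number of arrays limits the precision. P values, standard errors and intervals of limma combine the spread between single mice with a variance shared over all tested probes.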

Additional observations from a re-analysis of the deposited data

Results flagged for a closer look

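In 3 of 82 groups of 4 mice (41 members, MI and sham each), 1 mouse lay far from the other 3 of its group by the gap to its nearest neighbour relative to the whole range (Dixon's test). Chance flags about 1 group in 20. Mcm7 signal was 9.29 in MI replicate 2 against 10.11 to 10.23 in the other MI mice, and this array had one of the lowest medians (-0.30 from the mean of all arrays). Ccna2 signal was 6.22 in MI replicate 4 against 5.56 to 5.66 in the other MI mice. Bub1 signal was 3.06 in MI replicate 3 against at most 4.39 in the other MI mice, and it was not well above background on any of these arrays. The constant added on this array, which sets how low a dim probe can read, was 4.74 signal units. On the other MI arrays it was 16.3 to 19.6.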

How the results depend on the processing

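The call of Ccnd1 held in all alternatives, and mitosis genes gave 0 calls in each. Of the replication genes, 0 instead of 1 were called with a vsn likelihood fitted anew and 0 without a detection filter. The first uses larger added constants (166 to 257 signal units), which shrink differences of dim probes. The second brings undetected probes into the adjustment and also into the variance that limma shares between probes. These 2 effects were not told apart. Leaving out each mouse in turn gave 1 to 1 replication calls, 0 to 0 mitosis calls, and 1 to 2 calls among cyclins and E2Fs, with E2f2 added without sham replicate 3. Over the whole array 1883 to 3213 probes were then called. Whole-array calls were 5973 after scaling to the 75th percentile, 6142 after quantile normalization, 6249 after normexp background correction, 1271 with the new vsn fit and 990 without a filter, against 2590. Counts among the other replication genes ran from 0 to 15, among other mitosis genes from 0 to 5 and among the regulators from 1 to 10. With the replicate number as a block 4895 probes were called, and the members called were the same pair, Tk1 and Ccnd1. It also called 1 endothelial and 1 fibroblast marker higher and 1 cardiomyocyte marker lower. Whether the numbers pair the mice is not settled. In deviations from the group means, same-numbered mice correlated at 0.24, 0.29, 0.14 and 0.01 and the 12 differently numbered pairs at -0.33 to 0.23 (mean -0.06), and 5 of 8 mice correlated best with their own number, so the block was kept as an alternative. Between 0 and 12 of 36 members changed sign under an alternative, none of them called. Probes close to background, such as Top2a and Kif23, limit what can be read of mitosis.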
